A study of Mus musculus with 6 samples.

Results

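The AP-1 transcription factor subunits examined here are 10 genes: the FOS genes Fos, Fosb, Fosl1 and Fosl2, the JUN genes Jun, Junb and Jund, and their relatives Atf3, Batf and Maff. They were chosen by name. Each was represented by the probe set that carried its symbol alone, and all 10 of 10 were found, with 1 probe set each, among 19938 genes in all. The RNA came from bone marrow derived mast cells of C57BL/6J background, either wild type (WT) or mir-155 KO. There were 3 independent cultures of each genotype, every one with an array of its own, and so 6 arrays. Every culture, of both genotypes, was kept for 5 weeks in 0.5 ng/ml IL-3 together with 1 ng/ml SCF. It was then loaded with anti-DNP IgE (0.2 µg/ml) overnight, and DNP-HSA, the antigen, was added at 20 ng/ml; RNA was taken 1 h later. No unstimulated cells are among the 6 arrays, so the values compare genotypes after stimulation and do not show how far antigen moved any gene. The marrow itself came from knockout mice, so the cells also differentiated without miR-155.

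AP-1 is a dimer. FOS and JUN proteins join through a leucine zipper and bind DNA through a neighbouring basic region, and the make-up of the pair sets how strongly it activates. Many of these genes are immediate early genes, switched on within minutes when IgE receptors (FcεRI) are cross-linked on a mast cell, and AP-1 works with NFAT and NF-κB on cytokine genes of that cell. miR-155 is a microRNA that lowers its target RNAs by pairing through its seed, bases 2 to 8 from the 5′ end, and Fos is one of its reported targets.

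The microRNA missing from the knockout cells is shown first, with the seed in capitals, as RefSeq gives it on GRCm38.p6 (chr16:84714143-84714165, plus strand, 23 bases, for the 5p arm). The 3p arm of the same hairpin is 21 bases long. Of 1738 mature mouse miRNAs in that table, only miR-155-5p itself carries its seed.
mmu-miR-155-5p: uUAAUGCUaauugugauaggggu
mmu-miR-155-3p: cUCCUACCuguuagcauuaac

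Promoters are shown for 3 members that the results below turn on: Batf, the member that rose in the knockout, Fos, the reported target, and Jun, a partner of both. The sequences are the 250 bases before the RefSeq start on GRCm38.p6, 5′ to 3′ on the gene's strand, with matches to the searched motifs in capitals. The Batf stretch is chr12:85686470-85686719 on the plus strand, the Fos stretch chr12:85473640-85473889 on the plus strand and the Jun stretch chr4:95052223-95052472 on the minus strand.
Batf: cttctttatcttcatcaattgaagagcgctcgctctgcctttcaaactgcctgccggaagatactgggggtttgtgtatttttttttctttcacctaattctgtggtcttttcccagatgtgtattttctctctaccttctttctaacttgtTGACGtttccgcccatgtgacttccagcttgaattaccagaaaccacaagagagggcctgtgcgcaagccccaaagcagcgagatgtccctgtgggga
Fos: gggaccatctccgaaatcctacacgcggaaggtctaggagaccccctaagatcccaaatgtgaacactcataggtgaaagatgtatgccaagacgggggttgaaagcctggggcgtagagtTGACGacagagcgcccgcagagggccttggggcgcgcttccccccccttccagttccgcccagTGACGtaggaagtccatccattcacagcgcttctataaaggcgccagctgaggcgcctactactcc
Jun: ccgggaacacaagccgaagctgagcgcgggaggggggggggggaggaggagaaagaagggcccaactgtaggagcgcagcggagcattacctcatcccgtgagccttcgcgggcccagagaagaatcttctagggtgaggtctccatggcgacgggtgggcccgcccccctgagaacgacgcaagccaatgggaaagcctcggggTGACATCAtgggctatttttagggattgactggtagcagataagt

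The motifs were the TRE to which AP-1 binds (TGAGTCA or TGACTCA), the cyclic AMP response element or CRE (TGACGTCA), its half-site TGACG, which every CRE also holds, the variant TGACATCA known from the Jun promoter, and the CArG box bound by serum response factor, all on both strands. The half-site and the variant were added after the sequences had been seen. RefSeq windows were found for 9 of 10 members (11 windows, 3 of them for Maff), and none was found for Fosl1. The half-site stood in 7 of these 11 windows, those of Fos, Fosb, Junb, Atf3, Batf and 2 of Maff, and in 17.8% of all 32851 windows. In the Batf stretch it began at -98 from the start, in the Fos stretch at -129 and -66. TGACATCA stood in the Jun stretch from -45 to -38 and in 1 Maff window, and in 2.93% of all windows. The full CRE was found in 1 Maff window (1.55% of all windows), and neither the TRE (4.46%) nor the CArG box (1.47%) was found in a member's window. The members' windows ran from 46.4% to 68.8% GC, against a median of 52.4% over all windows. The shares of all windows were not matched for GC. These matches describe letters in the 250 bases searched and not binding.

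Across the 19938 genes, Pearson correlations, which are not over independent replicates, were 0.994 to 0.995 among WT arrays and 0.992 to 0.996 among KO arrays. KO replicate 1 lay apart on the first principal component at 32.0, against 5.36 and 7.31 for the other 2 KO arrays and -19.5 to -10.6 for the WT arrays. The probe set of Mir155, the deleted gene, read 2.93, 2.88 and 3.17 in WT and 2.77, 2.91 and 2.90 in KO arrays (log2), near the bottom of the scale in both, and so checks neither the deletion nor the labels. Of 14 mast cell markers, 13 were measured, and 0 changed by limma (3 higher and 1 lower at an unadjusted p under 0.05). At that p, 1245 of all 19938 genes were higher and 1286 lower in KO. The IgE-binding receptor chain Fcer1a stood at 12.06 ± 0.13 (WT) and 12.10 ± 0.10 (KO), Kit, which binds SCF, at 11.89 ± 0.19 (WT) and 11.82 ± 0.10 (KO; log2, SD, n = 3). The largest difference in this list was that of Hdc, the histamine-forming enzyme, which read 8.79, 9.65 and 9.70 in WT and 10.72, 10.15 and 9.80 in KO arrays (0.84, adjusted p = 0.233, groups not overlapping). The granule protease gene Mcpt4 differed by 0.44 (adjusted p = 0.174) and the transcription factor gene Mitf by -0.29 (adjusted p = 0.336). Because these are bulk samples, fewer cells of a type and less RNA per cell cannot be told apart.

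Batf rose in the knockout, by 2.10-fold. It was the member with the lowest p, and the other 9 members did not pass the test, although their mean differences were also above 0. Fos, the reported miR-155 target, differed by 0.07 on the log2 scale, within the spread of its KO arrays. All comparisons are KO minus WT on the log2 scale, fitted with limma over all 19938 genes, and a gene is said to have risen or fallen where its Benjamini-Hochberg adjusted p was under 0.05. In this fit 0.823% of all genes were called in either direction and 0.507% as higher in KO, against 1 of 10 members.

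**Figure D1:**
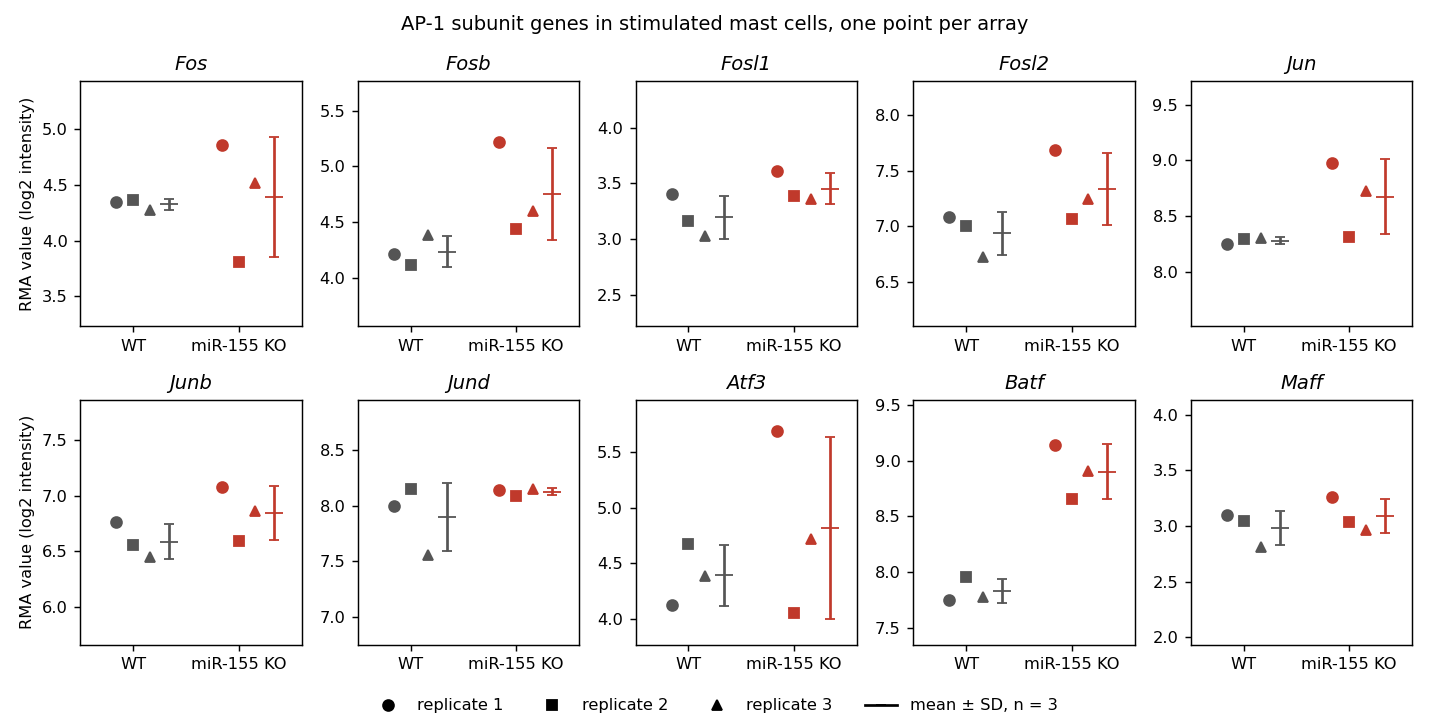
Values of the 10 AP-1 genes on each array (vertical axis, RMA log2 intensity, a span of the same height in every panel) for WT (grey) and miR-155 KO (red), with the symbol giving the replicate number and the bar the mean ± SD over 3 arrays. The Batf arrays separate by genotype, with WT values of 7.75 to 7.96 and KO values of 8.65 to 9.14, while for Fos the KO arrays lie on both sides of the WT arrays.

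Among the FOS genes, Fos itself encodes c-FOS, the classic partner of JUN and a strong activator. Fos read 4.34, 4.37 and 4.27 in WT replicates 1, 2 and 3 and 4.86, 3.81 and 4.51 in KO replicates 1, 2 and 3 (log2 intensity). The 3 WT arrays lay within 0.10 of each other, while KO replicate 1 stood above and KO replicate 2 below all of them. The difference was 0.07 (SE 0.22, 95% interval -0.44 to 0.58, adjusted p = 0.959), so an increase of up to 0.58 is inside the interval. The WT values lay little above 3.70, the median of all values, and how fully a change shows at this level was not tested. Without KO replicate 1 the difference was -0.17 and without KO replicate 2 it was 0.36, neither past the threshold (adjusted p = 0.864 and 0.264).

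Fosb, a second activating FOS protein, read 4.21, 4.12 and 4.38 in WT and 5.22, 4.44 and 4.60 in KO arrays. All KO arrays lay above all WT arrays, but KO replicate 2 exceeded the highest WT array by 0.06. The difference was 0.52 (SE 0.19, 95% interval 0.10 to 0.94), and it did not pass (unadjusted p = 0.0216, adjusted p = 0.271, limma). Without KO replicate 1 it was 0.29. The WT values of Fosb, like those of Fos, lay little above the median of all values.

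Fosl2, which encodes FRA-2, a FOS protein without the strong activation domain of c-FOS, read 7.08, 7.01 and 6.72 in WT and 7.69, 7.07 and 7.25 in KO arrays. KO replicate 2 lay just inside the WT range and the other 2 KO arrays above it. The difference was 0.40 (SE 0.16, 95% interval 0.03 to 0.77, adjusted p = 0.350). Fosl1, which encodes its relative FRA-1, ranged from 3.02 to 3.40 in WT and from 3.36 to 3.61 in KO arrays, with a difference of 0.26 (95% interval -0.01 to 0.53, adjusted p = 0.429). Its values lay below 3.70, the median of all values on the 6 arrays, where the signal may be background.

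Among the JUN genes, which can pair with each other as well as with FOS proteins, Jun read 8.24, 8.29 and 8.30 in WT and 8.98, 8.32 and 8.72 in KO arrays. The WT arrays were close together (SD 0.03). All KO arrays lay above them, KO replicate 2 by 0.01. The difference was 0.39 (SE 0.15, 95% interval 0.05 to 0.74, adjusted p = 0.312, limma), and it was 0.57 without KO replicate 2 (adjusted p = 0.0734) and 0.24 without KO replicate 1 (adjusted p = 0.638).

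Junb, which encodes a weaker activator that can restrain JUN, read 6.76, 6.55 and 6.45 in WT and 7.08, 6.59 and 6.86 in KO arrays. The groups overlapped through KO replicate 2, and the difference was 0.26 (SE 0.14, 95% interval -0.05 to 0.57, adjusted p = 0.506). Jund, the JUN gene that is expressed in many resting cells, read 7.99, 8.15 and 7.56 in WT and 8.14, 8.09 and 8.15 in KO arrays. Here the spread lay in WT (SD 0.31), with WT replicate 3 lowest, and the KO arrays were nearly alike (SD 0.03). The difference was 0.23 (95% interval -0.10 to 0.55, adjusted p = 0.596), and it was 0.06 without WT replicate 3.

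Batf is a small protein of the family that has a basic region and zipper but no activation domain of its own. It pairs with JUN proteins and, in lymphocytes and dendritic cells, binds DNA together with IRF4 or IRF8. Batf read 7.75, 7.96 and 7.78 in WT replicates 1, 2 and 3 and 9.14, 8.65 and 8.91 in KO replicates 1, 2 and 3. The lowest KO array stood 0.70 above the highest WT array. The means were 7.83 ± 0.11 in WT and 8.90 ± 0.25 in KO (SD, n = 3), a difference of 1.07 (SE 0.13, 95% interval 0.78 to 1.37, adjusted p = 0.0118), the same direction in 3 of 3 KO arrays. It was 0.95 without KO replicate 1, the array that lay apart (adjusted p = 0.0151). The call was lost without WT replicate 1 (difference 1.03, adjusted p = 0.0699), without WT replicate 3 (1.05, adjusted p = 0.0678) and in a fit of all 35557 probe sets, with or without a gene name (adjusted p = 0.0964). Over its 14 alternatives the adjusted p ran from 0.00343 to 0.0964 and the difference from 0.95 to 1.20.

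Atf3, a stress-induced member that often represses as a homodimer, read 4.12, 4.67 and 4.39 in WT and 5.68, 4.06 and 4.72 in KO arrays. The WT values lay not far above the median of all values. KO replicate 1 was the highest of the 6 arrays and KO replicate 2 the lowest. With this spread (KO SD 0.82) the difference of 0.43 had a 95% interval from -0.36 to 1.21 (adjusted p = 0.714), and without KO replicate 1 it was -0.0063. Maff, a small MAF protein that has no activation domain and also pairs with NRF2, ranged from 2.81 to 3.10 in WT and from 2.97 to 3.26 in KO arrays. Like Fosl1 it lay below the median of all values, and its difference was 0.10 (95% interval -0.15 to 0.36, adjusted p = 0.806).

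**Figure D2:**
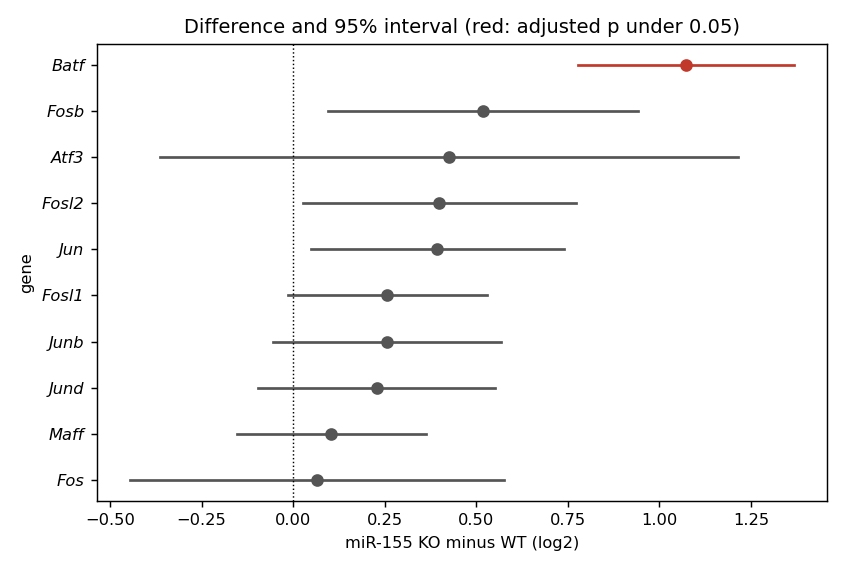
Difference between miR-155 KO and WT (horizontal axis, log2) with its 95% interval from limma for each of the 10 genes (vertical axis), ordered by size. Batf, drawn in red, is the member with an adjusted p under 0.05, at 1.07 (0.78 to 1.37), and the other 9 points lie between 0.07 and 0.52.

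Read as a list, the members had positive differences in 10 of 10 cases, as had 48.0% of all genes, and the median was 0.33, against -0.01 over all genes. The groups did not overlap, with KO higher, for 3 of 10 members (Batf, Fosb and Jun), and this held for 8.18% of all genes. At an unadjusted p under 0.05 with KO higher there were 4 of 10 members (Batf, Fosb, Fosl2 and Jun), against 6.24% of all genes. The count of 4 was 2 without WT replicate 2, WT replicate 3, KO replicate 1 or KO replicate 3, 7 without KO replicate 2 and 6 with the replicate block. Without KO replicate 1, 8 of 10 differences were positive with a median of 0.20, and without KO replicate 2 the median was 0.46.

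The KO arrays did not carry the members evenly. Averaged over the 10 genes, KO replicates 1, 2 and 3 stood 0.70, 0.08 and 0.34 above the WT mean, while the WT arrays lay between -0.10 and 0.06. KO replicate 1 was the highest KO array for 9 of 10 members (all but Jund), against 36.4% of all genes, and KO replicate 2 was the lowest for 8 of 10, against 35.0% of all genes. The SD over 3 arrays was larger in KO than in WT for 8 of 10 members (medians 0.28 and 0.16), against 48.6% of all genes (medians 0.11 and 0.11). Jund and Fosl1 were the exceptions. KO replicate 1 is also the array that lay apart over all genes, and its part in the members' differences beyond the values given without it was not tested. Batf differed from this picture in size: even KO replicate 2 stood 0.82 above the WT mean of Batf, where it stood between -0.52 and 0.20 for the other 9 members. Whether the difference of Batf exceeds those of the other members was not tested.

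**Figure D3:**
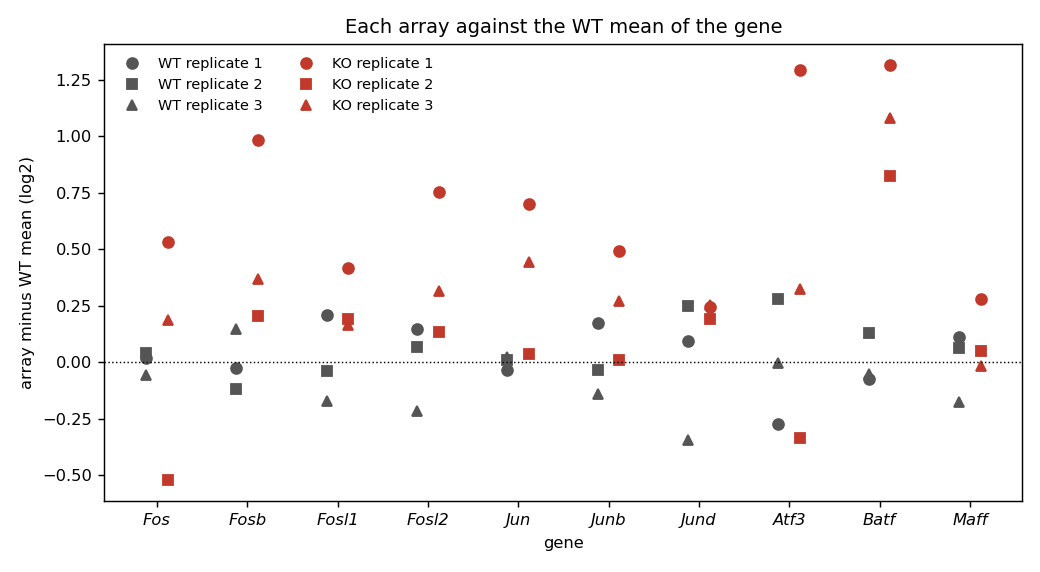
Each array minus the WT mean of the same gene (vertical axis, log2) for the 10 members (horizontal axis), WT in grey and KO in red, with the symbol giving the replicate. KO replicate 1 (red circle) is the top KO array in 9 of 10 genes and KO replicate 2 (red square) the bottom one in 8 of 10, and for Batf all 3 KO arrays stand at 0.82 or more.

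Once the genotype means were taken out, the members still moved with one another across the 6 arrays. Of 45 pairs, 44 had a positive correlation of these deviations (median r = 0.69), a description over 6 arrays that all genes share. The share among pairs of all genes was not computed, so the count is not shown to be particular to the members. KO replicate 1, which lay apart over all genes, is among these arrays. The closest pairs included Fos with Jun (r = 0.99) and Atf3 with Batf (r = 0.98), and the negative one was Fosb with Jund (r = -0.25). The r of Fos with Jun rests mainly on the 3 KO arrays. Their SD was 0.54 for Fos and 0.34 for Jun, against 0.05 and 0.03 in WT. Likeness to other genes was instead ranked on the values themselves, with the genotype difference left in, among 1368 genes with an SD of at least 0.3. The 3 genes most like Batf over the 6 arrays were Ccl9, a CC chemokine (r = 0.997), Ppfibp2, a liprin scaffold protein (r = 0.995), and Hpn, a serine protease (r = 0.995). All 3 rose in the knockout. With the genotype means taken out, their r was 0.963, 0.987 and 0.939. Ccl9 read 5.74 to 6.06 in WT and 7.64 to 8.58 in KO arrays. The genes most like Fos were Tmem267 (r = 0.99), Pde4d, a cyclic AMP phosphodiesterase (r = 0.97), and Rnf7 (r = 0.94). Tmem267 read 6.23 to 6.39 in WT and 7.41, 5.09 and 6.77 in KO replicates 1, 2 and 3, the same order as Fos.

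Fos and Batf are close neighbours in the genome, with a distance of 212830 bases between their RefSeq windows on chromosome 12 and 1 protein-coding gene between them, Jdp2. Jdp2 encodes a further dimer partner of JUN that represses AP-1 sites. It read 6.58, 6.31 and 6.11 in WT and 6.97, 6.02 and 6.49 in KO arrays, a difference of 0.16 (SE 0.22, adjusted p = 0.856). Its KO arrays straddled the WT arrays, as those of Fos did, and of these 3 neighbours Batf was the one that passed. Jdp2 was singled out after its values had been seen.

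Beyond the 10 members, other leucine zipper factors that can pair with them or share their sites showed no change past the threshold. Among the 30 measured, by limma 0 rose, 0 fell and 30 missed the threshold (2 higher and 3 lower at an unadjusted p under 0.05), with a median difference of 0.01. Over all 19938 genes 1245 were higher and 1286 lower at that p. Nfe2, which pairs with small MAF proteins such as MAFF, differed by -0.44 (SE 0.09, adjusted p = 0.0836) with all KO arrays below WT. Nfe2l1 of the same family differed by 0.34 (adjusted p = 0.188). Cebpb, a factor of inflammatory genes, differed by 0.51 (adjusted p = 0.253) and Creb1, which binds the CRE, by -0.28 (adjusted p = 0.255).

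Upstream of AP-1, MAP kinases phosphorylate JUN and the factors that switch Fos on. Of 40 such kinases and activators, 35 were measured, and by limma 0 rose, 0 fell and 35 missed the threshold (3 higher and 3 lower at an unadjusted p under 0.05), with a median of -0.02. Of all 19938 genes, 1245 were higher and 1286 lower at that p. Rps6ka3, the ERK-activated kinase RSK2, differed by 0.36 (SE 0.09, adjusted p = 0.106). Map3k3 differed by -0.29 (adjusted p = 0.150), Map2k2, which activates ERK, by 0.30 (adjusted p = 0.221) and Map3k1, which acts toward JNK, by -0.22 (adjusted p = 0.302). These are RNA levels and give no measure of kinase activity.

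Downstream, of 43 genes reported as AP-1 targets in other systems 40 were measured, and 5 rose, 0 fell and the other 35 did not pass. Over all genes 0.507% were called as higher in KO. At an unadjusted p under 0.05 (limma) 15 of the 40 were higher, against 6.24% of all genes, and 3 were lower, against 1286 of all 19938 genes. The median difference was 0.19, against -0.01 over all genes. Of the 40 differences 29 were positive and 11 negative, the lowest at -0.86. All KO arrays lay above WT in 13 genes and below WT in 5, against 1631 and 1805 of all 19938 genes. The 5 that rose were Il1b, Il13, Ccl3, Ptgs2 and Nqo1. Il13, the allergy cytokine, read 7.06, 7.40 and 6.52 in WT and 10.27, 8.76 and 9.75 in KO arrays (adjusted p = 0.0203). Ptgs2, cyclooxygenase 2, read 4.29, 3.85 and 3.82 in WT and 6.77, 5.26 and 5.77 in KO arrays (adjusted p = 0.0386), its WT values little above the median of all values. Nqo1, an antioxidant enzyme gene, read 8.10, 8.07 and 8.18 in WT and 8.64, 8.82 and 8.58 in KO arrays (adjusted p = 0.0363). Its call was lost whichever of the 6 arrays was left out, with the replicate block and with all probe sets tested, and it passed in 6 of 14 alternatives (adjusted p from 0.0220 to 0.159). When 1 array was left out Il13 and Ptgs2 each passed in 2 of the 6 fits, and over all alternatives each passed in 8 of 14 (Il13 at adjusted p values of 0.00456 to 0.136, Ptgs2 at 0.0143 to 0.182). In Il13 and Ptgs2 KO replicate 1 was highest and KO replicate 2 lowest of the KO arrays, the order seen in Batf, whereas in Nqo1 KO replicate 2 was highest. The list was drawn up with earlier results for several of these genes known and is no independent evidence of its direction. Its mean stood 0.74, 0.22 and 0.48 above the WT mean in KO replicates 1, 2 and 3. The count of 5 became 0 when WT replicate 1 or 3 was left out, 2 when WT replicate 2 or KO replicate 3 was, and 8 when KO replicate 2 was. It was 1 with trend and robust priors and 0 with all probe sets tested.

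**Figure D4:**
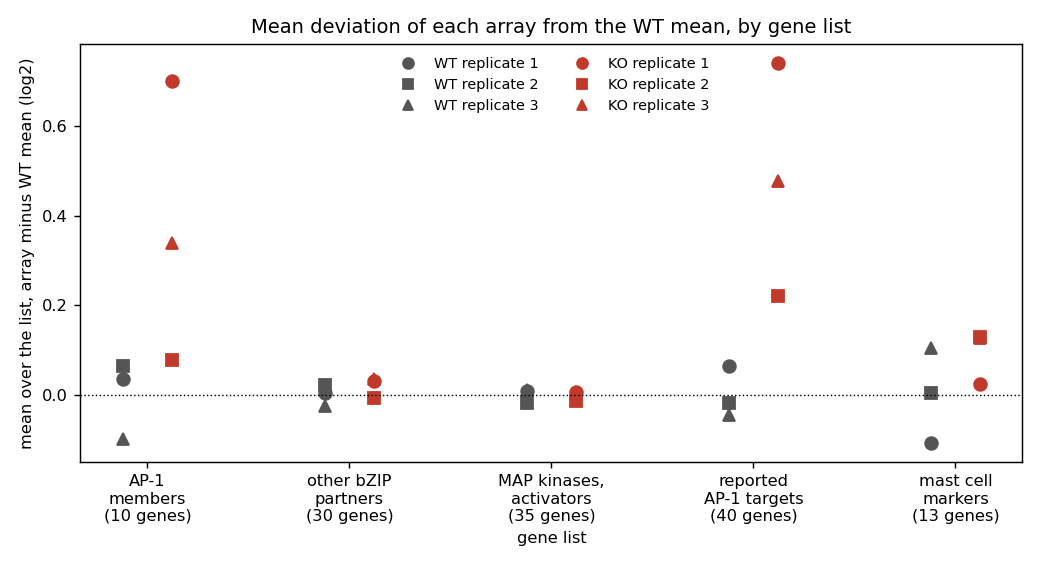
Mean over each gene list of array minus WT mean (vertical axis, log2) for the members, 3 related lists and the mast cell markers (horizontal axis, with the number of genes measured), WT in grey and KO in red. In the members (0.70, 0.08 and 0.34) and the reported targets (0.74, 0.22 and 0.48) the KO arrays keep the order replicate 1, 3, 2, while in the other bZIP partners and the MAP kinases they lie between -0.01 and 0.04.

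Markers of other blood cells were checked beside these results. Of 16 macrophage and monocyte markers 14 were measured, of which 1 fell, the fractalkine receptor gene Cx3cr1 (-0.95, adjusted p = 0.0280), and 13 did not pass. The summed level of the list was 55.1 to 56.2 in WT and 52.8 to 54.4 in KO arrays, lower in KO. Cx3cr1 made this separation: over the other 13 genes the sums were 46.5 to 47.5 in WT and 45.1 to 46.7 in KO arrays and overlapped, a sum taken after seeing the data. Of the 14 differences 4 were positive and 10 negative, the highest being that of the complement gene C1qc at 0.25 (adjusted p = 0.492). The defining marker Csf1r stood at 3.50 ± 0.04 (WT) and 3.38 ± 0.05 (KO) and Adgre1 at 3.51 ± 0.37 (WT) and 3.26 ± 0.32 (KO), all means below the median of all values. Cx3cr1 and Cd68 were the 2 genes of the list with a mean above that median. Cx3cr1 stood at 8.80 ± 0.20 (WT) and 7.85 ± 0.23 (KO). Cd68 stood at 8.46 ± 0.08 (WT) and 8.10 ± 0.44 (KO; adjusted p = 0.515, limma). The part of these cells in the results was not tested. By limma 0 changed among 13 neutrophil, 8 basophil and eosinophil, 11 lymphocyte and 9 stromal markers, where 0, 1, 0 and 0 genes had an unadjusted p under 0.05. Such a p was found for 12.7% of all genes.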

How the data were processed

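Per the submitters' processing notes the authors used RMA, of a version not given in the sources used here, to make the deposited log2 intensities from Affymetrix Mouse Gene 1.0 ST arrays. This method corrects background, normalizes between arrays and summarises probes, so differences are log2 ratios. Levels of different genes were not compared with each other, only with the median of all values or the bottom of the scale. Array medians lay between 3.67 and 3.74, and no further normalization was applied. Of 35557 probe sets, 21789 had exactly 1 symbol in the platform annotation, and a gene's probe set with the highest mean was kept, which left 19938 genes. All were tested in R 4.3.3 by limma 3.58.1 (lmFit, eBayes, genotype as the only term, two-sided, 4 residual and 4.68 prior degrees of freedom). SE and 95% intervals are moderated. With 3 against 3 arrays an exact permutation test cannot go below p = 0.10 and was not used. The number of arrays limits the precision.

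The members and gene lists were chosen with earlier results of these data known. Named are the 10 members, Mir155, in each pathway list the genes that passed or otherwise the 4 with the lowest p, and the 3 genes most correlated with Fos and with the member of lowest p. The symbols of 2 listed genes were updated through RefSeq (GRCm38.p6). Listed genes without a probe set of their own symbol were not analysed here. Alternatives were leaving out each array, a replicate block, array weights, trend and robust priors, median centring, quantile normalization, a filter on dim genes, all probe sets and averaged probe sets. The fit was tested on 20 simulated sets of 19938 genes for this comparison, where 99.0% of changes of 1 log2 unit were recovered and 6.45% of calls were false. Recovery at the larger KO spread of the members (median SD 0.28, against 0.11 over all genes) was not tested. Among the reported AP-1 targets, differences of 1.20 to 1.88 did not pass and those of 1.95 to 3.21 did. Size alone did not set the call: Nqo1 passed at 0.56 with a KO SD of 0.12, and Ccl4 missed at 1.88 with a KO SD of 1.21. A search for miR-155 sites in Fos RNA was not analysed here. Plots were drawn with matplotlib 3.10.9.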

Additional observations from a re-analysis of the deposited data

How the results depend on the processing

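The rise of Batf kept its direction in all 14 alternatives and passed in 11. The count of members that rose, 1, became 0 with all probe sets tested, and it ranged from 0 to 1 without each array in turn (0 without WT replicate 1 or WT replicate 3). Fos was reversed with array weights (-0.023) and without KO replicate 1 (-0.17), within a range of -0.17 to 0.36 without each array in turn, and Atf3 without KO replicate 1, within a range of -0.0063 to 0.81. None of these passed the threshold. Of the other 9 members 0 passed in any alternative, with the lowest adjusted p at 0.0734 (Jun, without KO replicate 2). Fosl1 and Maff were removed by the filter on dim genes and have no value there. Among reported AP-1 targets, 5 rose; the count was 1 with trend and robust priors, 0 with all probe sets tested and 0 to 8 without each array. The count that fell, 0, became 1 with the replicate block and with trend and robust priors, and 0 to 1 without each array. The causes were not tested. Counts in the other 2 lists were 0 in every alternative run.

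The design text names no pairing of cultures by replicate number. Deviations of same-numbered arrays correlated at -0.01, -0.06 and 0.24, and not every array correlated best with its own number. With 3 arrays per genotype these values cannot decide whether cultures were paired. With the replicate block Batf kept its call (adjusted p = 0.0316), and 199 genes were called in place of 164. Over all genes the count was 4 with all probe sets tested and 15 to 167 without 1 array.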
